A study of Mus musculus with 8 samples.

Results

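Of the 318 genes in the deposited table whose symbol is Zfp followed by digits, 120 had a mean of at least 100 normalised reads over the 8 libraries, and these 120 well-expressed zinc finger genes are described here out of 16349 genes in all. The members were selected on that measured mean, so the level of a member is a description and carries no test. The members just inside the limit were Zfp407 at 101.5, Zfp316 at 101.4 and Zfp54 at 101.1, and the genes just outside it were Zfp81 at 98.6, Zfp277 at 95.6 and Zfp572 at 94.5. All 120 passed the filter on low values. The mean over the 4 round libraries was under 100 in 5 members, and the mean over the 4 elongating libraries was under 100 in 32 members, so for these 37 the limit was reached through 1 stage and a stage difference was built in. The other 83 reached 100 at both stages.

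RNA was sequenced from purified mouse spermatids of the C57BL/6 background in 4 groups of 2 libraries: round WT, round cKO, elongating WT and elongating cKO. The conditional knockout targets Carm1, whose product methylates arginines of histones and other proteins as a coactivator of transcription, and the series asks which genes change with its loss at each stage. Round spermatids are haploid cells soon after meiosis, and elongating spermatids follow them as chromatin compacts. Every sample pooled 8 whole testes, with cells separated by centrifugal elutriation, and no sample was treated. The Cre driver, the deleted exons and the ages of the mice were not given in the sources used here. Whether the 2 libraries of a group are separate animals is not stated, and p-values then measure just the spread of these libraries, possibly technical.

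Carm1 itself stood at 1649 and 1686 in round WT and at 1174 and 1343 in round cKO libraries, and in elongating cells at 4308 and 4534 in WT against 8157 and 7993 in cKO libraries. It fell by 0.41 on the log2 scale in round cKO cells but was 0.87 higher on the log2 scale in elongating cKO cells, against the label. A count over the whole gene does not show which exons were read. The cKO libraries are therefore called KO-labelled below. Each library held between 17190962 and 23526694 recovered reads. The 50 most abundant genes held 10.1% to 10.3% of the reads in round libraries and 31.9% to 34.9% in elongating libraries, so fold changes between stages, and between elongating groups, move with the scaling. Counts under total-count scaling are given beside those of the deposited scaling for the lists described. Under total-count scaling, 6549 of the 8605 genes with a mean of at least 100 fell and 1673 rose in elongating against round WT cells. With the KO label 2226 of them fell and 1675 rose in round cells, and 6215 fell and 1024 rose in elongating cells. Counts of lists under that scaling are to be read against these.

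Most genes named Zfp encode proteins with C2H2 zinc fingers, small folds held by zinc that read short stretches of DNA when strung in tandem. Many of them also carry a KRAB box, which recruits the corepressor TRIM28 and through it the histone methyltransferase SETDB1, and KRAB proteins of this kind are known for silencing transposable elements and for keeping imprinted DNA methylation. These genes arose largely by tandem duplication, so they lie in clusters. The symbol is a name and not a domain, and some members belong to other finger families with other tasks, such as Zfp36, a CCCH protein that binds AU-rich mRNA and promotes its decay. In the mouse proteins of the GENCODE M21 annotation, 30 of the 120 members held a KRAB A-box pattern and 90 did not. The pattern misses divergent boxes, as in Zfp426 and Zfp759, so the 90 include KRAB genes and counts set against the 30 compare a pattern and not the whole KRAB family. Among the 195 less expressed Zfp genes with a protein, 111 held the pattern, which is 56.9% against 25% of the members. The number of C2H2 fingers found in a member had a median of 9 and a maximum of 36. No such finger was found in 4 members, Zfp36, Zfp185, Zfp330 and Zfp474.

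Levels differed widely among the members. Per kilobase of exon, averaged over the 8 libraries, Zfp574 was at 2782, Zfp474 at 1616, Zfp654 at 1538 and Zfp217, which encodes a subunit of corepressor complexes, at 1418. Zfp541, a germ cell factor needed in meiosis, was at 817 and Zfp451, a SUMO ligase, at 739. The median member with the KRAB pattern was at 55.6 per kilobase in round WT and at 18.6 in elongating WT cells, whereas the median member without it was at 72.0 and 59.3. In the heat map of all members, the round and elongating libraries differed in opposite senses for the 2 blocks of genes.

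**Figure D1:**
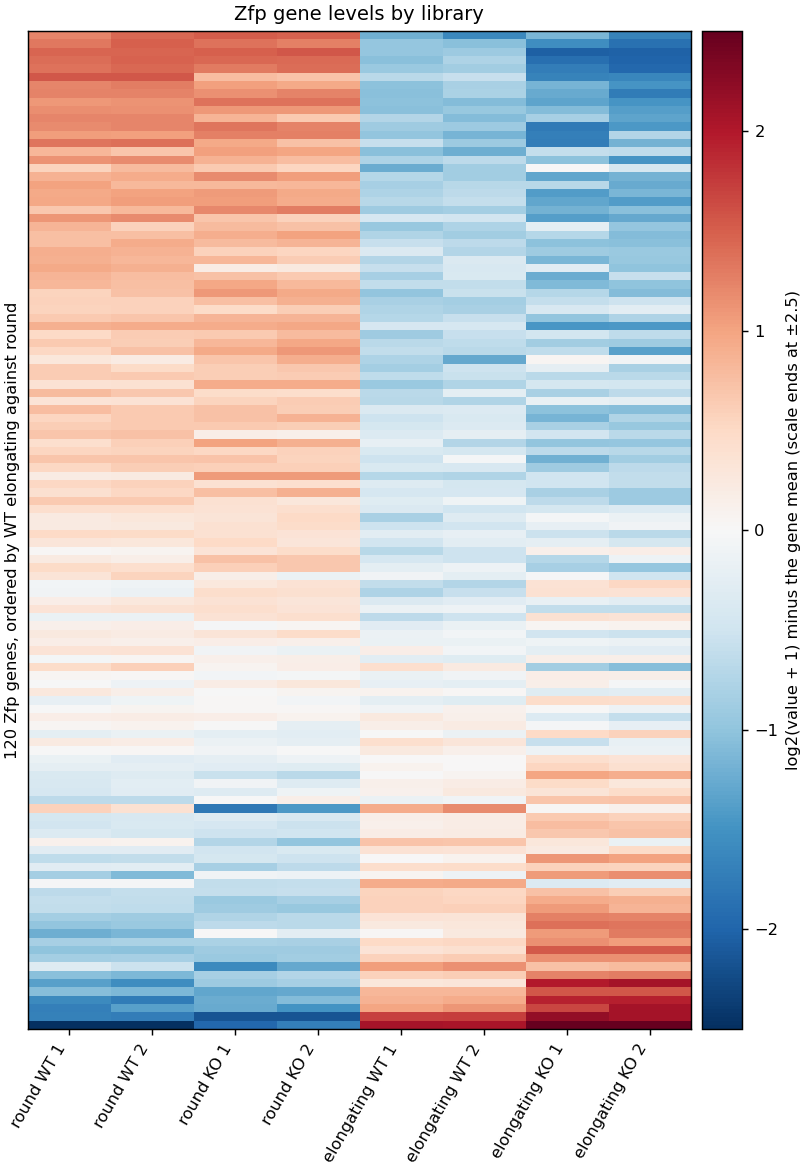
Heat map of the 120 Zfp genes in rows against the 8 libraries in columns. Colour is log2(value + 1) minus the mean of the gene, and genes are ordered by their difference between elongating and round WT cells. The long upper block is higher in the round libraries (78 genes fell in elongating WT cells) and the shorter lower block is higher in the elongating ones (34 genes rose).

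The first question was how these genes differ between the 2 stages. In WT cells, 78 of the 120 members fell and 34 rose in elongating against round spermatids, at a limma adjusted p under 0.05. Of all 15685 genes tested, 40.2% fell and 41.7% rose, and of the 8605 genes with a mean of at least 100, 49.4% fell and 42.4% rose. The median log2 fold change was -0.72 over the members, 0.01 over all genes tested and -0.18 over genes with a mean of at least 100. Of the 83 members at 100 or more in both stages, 47 fell and 29 rose, with a median of -0.33, and under total-count scaling 75 fell and 5 rose. Under that scaling 6549 of the 8605 genes with a mean of at least 100 fell and 1673 rose. The less expressed Zfp genes had the same order of counts, with 75 falls and 31 rises among 173 tested.

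Members with the KRAB pattern lay mostly in the falling block. In elongating WT cells 26 of the 30 fell, with a median log2 fold change of -1.41, and the 4 that rose were Zfp316, Zfp13, Zfp317 and Zfp558. These rises belong to the deposited scaling and to TMM scaling. Under total-count scaling 29 of the 30 fell and 0 rose, with Zfp13, Zfp317 and Zfp558 at -0.74, -0.80 and -0.83 and Zfp316 at -0.13 without passing the test. Only 10 of the 30 reached 100 in both stages, and 7 of these fell. Among the 90 members without the pattern 52 fell and 30 rose, with a median of -0.40, and under total-count scaling 80 fell and 7 rose. Of the 8605 genes with a mean of at least 100, 6549 fell under that scaling. Over all Zfp genes tested, whatever their mean, 68 of 121 with the pattern fell and 13 rose, against 85 falls and 51 rises among 169 without it. The difference between the 2 classes was described and not tested.

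Among members at 100 or more in both stages, Zfp646, a protein with 27 fingers found, fell most. Its values were 6890 and 6853 in the round WT libraries against 1280.1 and 1343 in the elongating ones, and the groups did not overlap. The log2 fold change was -2.39 ± 0.04 (limma SE, adjusted p = 1.0e-16). Zfp105 and Zfp438 followed with -2.35 and -2.29, and neither held the KRAB pattern. Zfp57, which protects the methylation of imprinted regions, fell by 1.07 on the log2 scale.

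Other large differences were in members that reached the mean of 100 through the round libraries alone, and they are given as values with no test. Zfp819, which encodes a KRAB protein known to bind TRIM28, read 354 and 413 in round WT against 65.7 and 49.0 in elongating WT libraries, a difference of -2.73 on the log2 scale. Zfp518a differed by -2.41 and Zfp445, which has the same role as Zfp57, by -1.44.

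On the rising side the members with the largest changes had few or no C2H2 fingers. Zfp706, with 1 finger found, read 426 and 414 in round WT against 4496 and 4573 in elongating WT libraries, a rise of 3.43 ± 0.05 (limma SE, adjusted p = 1.3e-17). Zfp185, an actin-associated LIM protein, rose by 2.56 and Zfp704, with 1 finger found, by 1.92. Zfp36 and Zfp385b, a member of a small family with RNA-binding relatives, reached the mean of 100 through the elongating libraries alone and are given with no test. Zfp36 read 41.4 and 30.9 in round WT against 1395 and 1377 in elongating WT libraries, a difference of 5.24 on the log2 scale, and Zfp385b differed by 2.57. Across the 120 members the stage difference ran weakly against the number of fingers (Pearson r = -0.33, Spearman rho = -0.34, over genes that share the libraries), which is given as a description. Of the 69 members with at least 8 fingers 51 fell and 14 rose, and of the 51 with fewer 27 fell and 20 rose. Under total-count scaling these counts were 64 and 1 in the first set and 45 and 6 in the second. As deposited, 40.2% of all genes tested fell and 41.7% rose. Scaled to total reads, 6549 of the 8605 genes with a mean of at least 100 fell and 1673 rose. The correlations and counts include members that reached 100 through 1 stage alone, such as Zfp36, whose stage difference was built in.

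**Figure D2:**
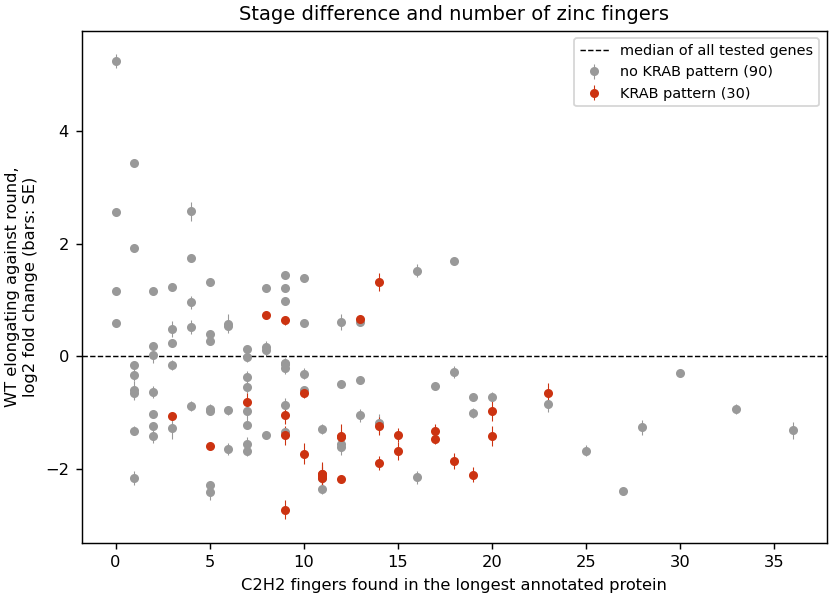
Log2 fold change of WT elongating against round spermatids (vertical, bars are the SE of the model) against the number of C2H2 fingers found (horizontal) for each of the 120 genes. Genes with the KRAB pattern (red) lie mostly between -0.65 and -2.73, and the highest points, Zfp36 at 5.24 (a member through the elongating stage alone) and Zfp706 at 3.43, have 0 and 1 fingers. The 4 red points above 0 hold under the deposited and not under total-count scaling.

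In KO-labelled cells the stage difference had the same shape, with 72 falls and 36 rises among the members against 41.8% and 42.6% of all genes tested and 48.5% and 44.3% of those with a mean of at least 100. When libraries were scaled to their total reads, the median of all genes in the WT comparison moved from 0.01 to -1.42 and the members counted 109 falls and 7 rises. With the 50 most abundant genes left out of the library size, that median was -1.03, with 101 falls and 14 rises. Relative to the median of all genes, the members' median lay at -0.73 as deposited and at -0.77 under total-count scaling, and that of the KRAB members at -1.42 and -1.45. These medians include members whose stage difference was built in. Among members at 100 or more in both stages the deposited medians were -0.33, and -1.15 for those with the KRAB pattern. In KO-labelled cells these 2 scalings gave 105 falls and 10 rises, and 100 falls and 15 rises.

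Markers of other cells moved with stage too. Of 16 spermatocyte markers 14 fell in elongating WT cells, and their summed value was 14433 to 14769 in round and 7570 to 7673 in elongating libraries. All 9 Sertoli cell markers rose, from a sum of 328 to 335 to one of 7143 to 7178, and all 8 macrophage markers rose, from 118 to 148 up to 4397 to 4417. The 4 Leydig cell markers and the 6 peritubular and vascular markers rose as well, and of 9 spermatid markers 7 rose and 2 fell. Among 10 spermatogonia markers 5 rose and 3 fell, with sums of 1774 to 1801 in round and 1292 to 1297 in elongating libraries. No marker was at 0 in every library of a group, but Rad51ap2 was at 0 in 1 elongating KO-labelled library and Hsd3b6, of the Leydig list, in 1 round WT library. Of the lists, 9 of 10 Sertoli and 4 of 6 Leydig markers were analysed here. The part of these cells in the stage difference was not tested, and in purified cell pools fewer cells of a type and less RNA per cell cannot be told apart.

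The second question was the effect of the KO label in round spermatids. There 24 of the 120 members rose and 21 fell, against 19.4% higher and 12.6% lower among all genes tested, and against 28.8% and 16.4% among genes with a mean of at least 100. The median log2 fold change was 0.02 over the members, 0.03 over all genes and 0.05 over genes with a mean of at least 100. As a group the members thus had a median close to that of the whole table, with single members far from it at both ends.

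Zfp36 led the rises. Its values were 41.4 and 30.9 in the round WT against 84.6 and 101 in the round KO-labelled libraries (36.1 ± 7.42 against 93.0 ± 11.9, SD, n = 2). The log2 fold change was 1.35 ± 0.12 (limma SE, adjusted p = 7.8e-07). Zfp316, a KRAB member, was at 36.3 and 38.1 in WT against 85.2 and 71.6 in KO-labelled libraries, a rise of 1.05 ± 0.16. That rise was in part built in. Zfp524 rose by 0.87, Zfp362 by 0.73 and Zfp618, a partner of the methylated-DNA reader UHRF2, by 0.59 on the log2 scale. Zfp462, a regulator of heterochromatin, stood at 299.7 and 303 in WT against 545 and 542 in KO-labelled libraries, a rise of 0.85 ± 0.09.

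4 further rises were of nearly equal size. Zfp597 rose by 0.56, Zfp672 by 0.55 and Zfp143, a promoter-binding activator, by 0.55 on the log2 scale. Zfp423, a cofactor in BMP signalling and fat cell commitment, rose by 0.56 with an adjusted p of 0.0057. That call was lost without the second round WT library (adjusted p = 0.060) and without the second round KO-labelled library (adjusted p = 0.083).

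Zfp296, a factor of pluripotent cells, had the largest fall of any member. It read 127 and 112 in the round WT against 24.2 and 31.0 in the round KO-labelled libraries (119.6 ± 10.8 against 27.6 ± 4.83, SD, n = 2). The log2 fold change was -2.09 ± 0.17 (limma SE) and is given with no test. All KO-labelled values of Zfp296, at both stages, lay under 100. It reached that mean through the WT libraries, so part of its fall was built in. Zfp628, a partner of TAF4B that is required for spermiogenesis, was at 185 and 159 in WT against 75.7 and 94.7 in KO-labelled libraries, a change of -1.01 ± 0.12 (adjusted p = 1.1e-05). Zfp933 fell by 0.96, from 155 and 153 to 86.5 and 72.1.

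Abundant KRAB members were among the falls. Zfp39 read 4914 and 4931 in the round WT against 2879 and 2746 in the round KO-labelled libraries, which gives a log2 fold change of -0.81 ± 0.05 (limma SE, adjusted p = 1.6e-08). Zfp110, which binds the p75 neurotrophin receptor, went from 2550 and 2693 to 1922 and 1778, a change of -0.50 ± 0.06. Zfp458, also with the KRAB pattern, fell by 0.71, and Zfp759, Zfp219 and Zfp236 fell by 0.58, 0.57 and 0.48. Zfp949 fell by 0.51 with an adjusted p of 0.038, and leaving out any of the 4 round libraries raised that p to between 0.073 and 0.25. In all, 4 of the 30 KRAB members rose and 6 fell in round cells, where 19.4% of all genes rose and 12.6% fell, and under total-count scaling 2 rose and 9 fell.

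The number of rises in round cells fell from 24 to 15 when the second round KO-labelled library was left out. Scaled to total reads, 17 members rose and 32 fell, and without the 50 most abundant genes 17 rose and 30 fell. Of the spermatocyte markers 2 rose and 6 fell, of the Sertoli markers 6 of 9 fell, with sums of 328 to 335 in WT against 210 to 237 in KO-labelled libraries, and of the macrophage markers 3 of 8 rose. Of the spermatid markers 6 of 9 rose and 0 fell, and 2 of 6 peritubular and vascular markers rose, with sums of 272 to 297 in WT against 393 to 418. Among 10 spermatogonia markers 2 rose and 1 fell. The part of these cells in the KO-label effect was not tested.

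**Figure D3:**
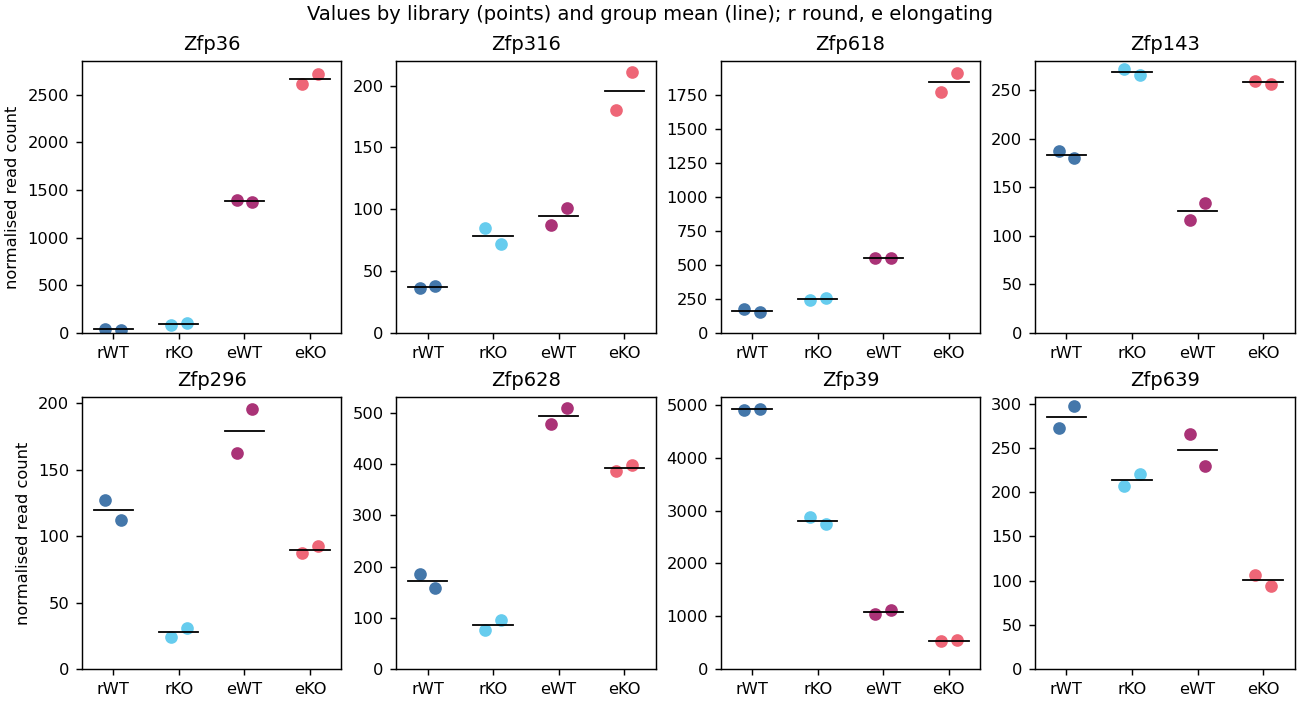
Normalised read count in each library (points, 2 per group) and group mean (line) for 4 genes that rose (upper row) and 4 that fell (lower row) with the KO label, each axis from 0. In round cells Zfp296 fell from 127 and 112 to 24.2 and 31.0, and in elongating cells Zfp618 rose from 548 and 554 to 1775 and 1912.

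The same comparison in elongating spermatids called more members. Of the 120, 43 rose and 48 fell, against 27.3% higher and 27.7% lower among all genes tested, and 39.5% and 32.3% among genes with a mean of at least 100. The median log2 fold change was -0.09 over the members, -0.07 over all genes and 0.03 over genes with a mean of at least 100. With libraries scaled to total reads the median of all genes became -0.61 and the split 17 rises and 87 falls, and without the 50 most abundant genes it became -0.55 with 20 rises and 77 falls. Relative to the median of all genes the members' median lay at -0.02 as deposited and at -0.03 under both of these scalings.

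Zfp618 rose most. It read 548 and 554 in the elongating WT against 1775 and 1912 in the elongating KO-labelled libraries (551 ± 4.14 against 1843 ± 96.9, SD, n = 2), a log2 fold change of 1.74 ± 0.08 (limma SE, adjusted p = 1.0e-10). Zfp516, a regulator of brown fat genes, went from 1775 and 1857 to 4079 and 4047, a rise of 1.16 ± 0.05. Zfp106, an RNA-binding protein, went from 1881 and 1925 to 4084 and 3982, a rise of 1.08 ± 0.05. In each of these genes the KO-labelled values lay above both WT values, as the rule for naming them required.

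The other leading rises formed a narrow band. Zfp524, Zfp768, Zfp316 and Zfp143 rose by 1.14, 1.11, 1.04 and 1.04 on the log2 scale. The rise of Zfp316 was in part built in, as in round cells. Zfp185, the LIM protein, rose by 1.04, and the KRAB member Zfp317 and Zfp423 rose by 1.00 each. Zfp36 rose by 0.94, from 1395 and 1377 to 2610 and 2720. Zfp217 rose by 0.92, from 9204 and 9089 to 17422 and 17144.

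Several of the most abundant members also rose, and for some the direction turned with the scaling. Zfp574 went from 16312 and 16781 to 25862 and 26566, a log2 fold change of 0.66 ± 0.04 (limma SE, adjusted p = 1.0e-09), and Zfp654 rose by 0.58, which became 0.02 (adjusted p = 0.58) under total-count scaling. Zfp451 rose by 0.45 as deposited and was at -0.11 under total-count scaling and -0.05 without the 50 most abundant genes. Zfp474 rose by 0.35 and was at -0.21 and -0.15 under the same scalings, and Zfp385a, a p53 target that binds mRNA, rose by 0.38 and was at -0.19 and -0.12. The rises of Zfp451, Zfp474 and Zfp385a thus hold relative to all genes and not on every scale.

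Zfp639 fell most in elongating cells. It read 266 and 229 in WT against 107 and 94.3 in KO-labelled libraries (247 ± 25.7 against 100.5 ± 8.77, SD, n = 2), a log2 fold change of -1.29 ± 0.11 (limma SE, adjusted p = 1.2e-07). Zfp219, a partner of SOX9 in cartilage, went from 1053 and 1067 to 433 and 454, a change of -1.26 ± 0.06. Zfp646 went from 1280.1 and 1343 to 611 and 615, a change of -1.10 ± 0.04. The leading falls were likewise named only where the WT and KO-labelled values did not overlap, so that was set by the choice.

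Zfp105 and the KRAB member Zfp626 each fell by 1.03 on the log2 scale, and Zfp39 fell by 1.02. Zfp296 fell by 0.98, from 162 and 196 to 87.3 and 92.4, again in part built in. Zfp438, Zfp110 and Zfp239 fell by 0.95, 0.87 and 0.76. Zfp541, the meiotic factor, went from 2843 and 2728 to 2343 and 2294, a small fall of 0.26 ± 0.04. Of the 30 KRAB members 7 rose and 12 fell in elongating cells, against 27.3% and 27.7% of all genes. Under total-count scaling 2 rose and 23 fell, and without the 50 most abundant genes 3 rose and 22 fell.

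Cell markers also moved with the KO label in elongating cells. All 8 macrophage markers fell, with sums of 4397 to 4417 in WT against 1829 to 1906 in KO-labelled libraries, and 7 of 9 Sertoli markers fell, from 7143 to 7178 down to 5132 to 5169. Of 16 spermatocyte markers 9 fell and 3 rose. Their sum was 9467 to 9528 in KO-labelled against 7570 to 7673 in WT libraries, but Syce1 made up most of it, and without Syce1 the sums were 2114 to 2200.0 against 2810.3 to 2968. Of 9 spermatid markers 7 rose and 2 fell, and of 10 spermatogonia markers 1 rose and 3 fell. Of 6 peritubular and vascular markers 3 rose and 2 fell, with sums of 1523 to 1577 in WT against 3185 to 3194, and the 4 Leydig markers, of which 1 rose, summed to 60.6 to 79.9 against 130.1 to 153. Their part in the changes of Zfp genes was not tested.

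Calls at the 2 stages were set side by side. The 2 contrasts share no library, but the libraries of all 4 groups shared 1 model. In both stages 19 members rose and 13 fell, and 24 were called in neither, a share not counted over all genes. Under total-count scaling 12 rose and 28 fell in both, and the share over all genes was not counted at that scaling. The 19 shared rises were 79.2% of the round rises and 44.2% of the elongating ones, and over all genes tested the corresponding shares were 62.8% and 44.7%. The 13 shared falls were 61.9% and 27.1%, against 50.4% and 22.9% over all genes. Across the 120 members the effects at the 2 stages had a Pearson r of 0.50, and across all genes tested of 0.52.

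**Figure D4:**
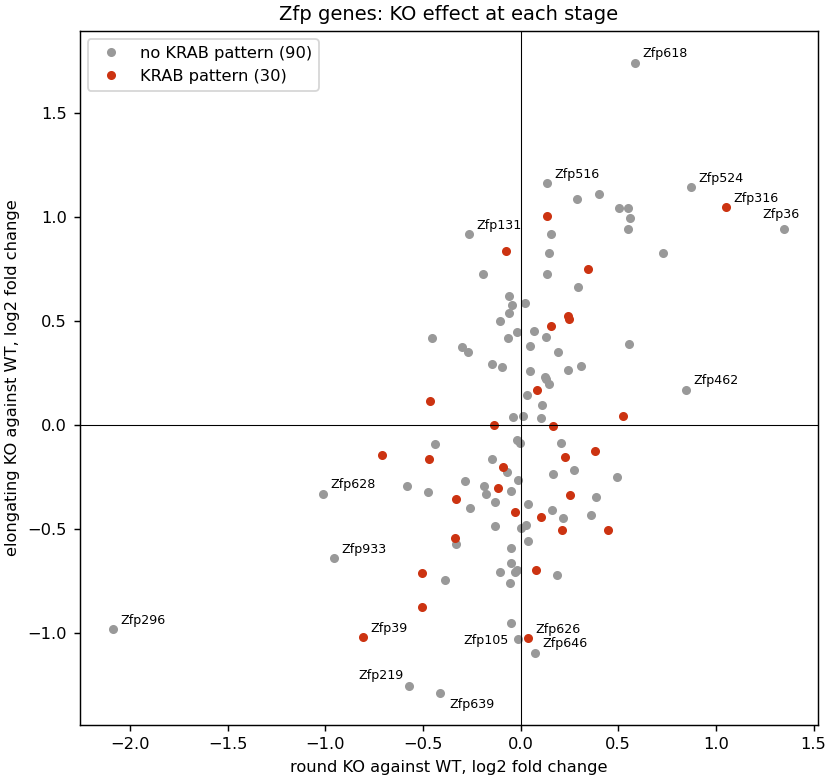
Log2 fold change with the KO label in round (horizontal) and elongating spermatids (vertical) for the 120 Zfp genes, with the 30 KRAB members in red. Zfp36, Zfp316 and Zfp524 lie high on both axes, Zfp296 lies low on both, and Zfp646, Zfp105 and Zfp626 are near 0 in round and near -1.0 in elongating cells.

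A test of the difference between the stages (elongating minus round effect) called 34 members higher and 35 lower, against 19.3% and 17.5% of all genes tested and 31.2% and 24.7% of those with a mean of at least 100. Total-count scaling gave 10 higher and 67 lower, and library sizes without the 50 most abundant genes gave 17 and 61. Without the first round WT library the lower count went from 35 to 23. The largest differences were those of Zfp131, Zfp646, Zfp618, Zfp296, Zfp626 and Zfp516. Zfp131, a BTB zinc finger protein, was at 316 and 329.9 in WT against 279.8 and 258 in KO-labelled round libraries, and at 411 and 433 against 818 and 775 in elongating ones. It fell by 0.26 in round and rose by 0.92 in elongating cells, a difference of 1.18 ± 0.11 (limma SE, adjusted p = 5.2e-07). In Zfp646 the effect was 0.07 in round cells and -1.10 in elongating cells, a difference of -1.17 ± 0.06.

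Zfp296 was low with the KO label at both stages, but less so in elongating cells, and the difference of the effects was 1.10 ± 0.24 (limma SE, adjusted p = 0.0020). Called changes ran in opposite directions in 8 members, and the share of such genes over the whole table was not counted. Zfp131, Zfp706, Zfp704, Zfp664 and Zfp474 fell in round and rose in elongating cells, and Zfp711, Zfp41 and Zfp426 rose in round and fell in elongating cells. Under total-count scaling the elongating value was -0.21 in Zfp474, -0.15 in Zfp706 and -0.19 in Zfp664, each a fall, so the opposite calls of these 3 belong to the deposited scaling and to TMM scaling. The rises of Zfp131 and Zfp704 in elongating cells held at 0.35 and 0.16. Both calls of Zfp426 are close to the threshold, with adjusted p-values of 0.022 and 0.041. The elongating call was lost with any 1 of the 8 libraries left out (adjusted p from 0.056 to 0.12), and the round call was lost without the first round WT (0.094), the second round WT (0.15) or the second round KO-labelled library (0.22).

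Sequences upstream of the start sites were read for the members whose response was largest, because the series title places CARM1 on an axis with CREM, a factor that binds the cAMP response element. RefSeq promoter windows of 250 bases before to 50 after the start (GRCm38.p6) matched 98 of the 120 members, with 138 windows. The full element TGACGTCA, which reads the same on both strands, was in 5 of these windows (3.62%) and in 1.79% of all 32851 windows. Its core TGACG, searched on both strands and contained in the full element, was in 34.8% of the members' windows and 20.8% of all windows. The members' windows also held more CpG, with a median of 18.5 against 7, and the core contains a CpG. The full element was in 1 of 51 windows of members that rose in elongating KO-labelled cells and in 3 of 55 windows of members that fell there. A match is a description of letters and not a binding site.

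The 250 bases before the start are shown for Zfp296, the largest fall in round cells, for Zfp618, the largest rise in elongating cells, and for Zfp426, the member with a full element nearest to Carm1. Zfp296 is at chr7:19577037-19577286 (plus strand), Zfp618 at chr4:62965317-62965566 (plus strand) and Zfp426 at chr9:20492747-20492996 (minus strand), all in GRCm38.p6 and before the first exon of the gene in GENCODE M21. Capitals mark the element, and the sequences run 5′ to 3′ on the strand of the gene.
Zfp296: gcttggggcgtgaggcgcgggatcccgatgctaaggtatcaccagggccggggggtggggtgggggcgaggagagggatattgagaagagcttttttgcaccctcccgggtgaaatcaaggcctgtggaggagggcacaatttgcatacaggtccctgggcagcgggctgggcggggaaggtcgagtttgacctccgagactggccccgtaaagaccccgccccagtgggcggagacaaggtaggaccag
Zfp618: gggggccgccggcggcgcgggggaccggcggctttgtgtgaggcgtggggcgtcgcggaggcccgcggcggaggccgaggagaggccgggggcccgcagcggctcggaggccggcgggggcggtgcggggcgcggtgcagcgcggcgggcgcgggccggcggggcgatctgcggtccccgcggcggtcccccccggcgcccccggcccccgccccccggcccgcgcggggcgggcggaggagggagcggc
Zfp426: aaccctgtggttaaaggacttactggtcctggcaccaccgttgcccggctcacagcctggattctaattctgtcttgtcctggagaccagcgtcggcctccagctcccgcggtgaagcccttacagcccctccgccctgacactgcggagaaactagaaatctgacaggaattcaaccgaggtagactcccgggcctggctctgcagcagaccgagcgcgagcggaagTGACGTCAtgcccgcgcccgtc
Neither element is in the upstream 250 bases of Zfp296 or Zfp618, which differ in CpG (14 against 48), and 1 full element is in those of Zfp426. Zfp36, the largest rise in round cells, and Zfp639, the largest fall in elongating cells, are not shown. The full element was in the promoter window of neither, and the core was in that of Zfp639 and not in that of Zfp36.

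Position was described by clusters, taken as runs of at least 4 Zfp genes of the table whose neighbouring starts lie at most 1 Mb apart in GENCODE M21 (GRCm38). There were 18 clusters, which held 41 of the 120 members. In WT elongating against round cells 33 of the 41 fell and 7 rose, against 40.2% and 41.7% of all genes tested. The 22 that also held the KRAB pattern counted 20 falls and 2 rises. Under total-count scaling 38 of the 41 fell and 2 rose, and all 22 with the pattern fell. So did 6549 of the 8605 genes with a mean of at least 100. With the KO label 9 rose and 7 fell in round cells, against 19.4% and 12.6% of all genes, and 12 rose and 17 fell in elongating cells, against 27.3% and 27.7%. Scaled to total reads, 7 rose and 10 fell in round and 6 rose and 29 fell in elongating cells. Among the 79 members outside clusters 45 fell and 27 rose between the stages in WT cells, with a median of -0.37 against -1.01 inside. Both sets include members that reached 100 through the round libraries alone, such as Zfp819, Zfp715 and Zfp942 inside and Zfp189 and Zfp800 outside. The stage difference of such members was built in, so the 2 medians are given as a description.

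Chromosome 7 held 78 Zfp genes, of which 25 were members and 18 of those lay in its 8 clusters. The cluster at 29.8 to 30.2 Mb has 13 Zfp genes and no member. With the KO label 5 of the 18 rose and 2 fell in round cells, against 19.4% and 12.6% of all genes, and 8 rose and 8 fell in elongating cells, against 27.3% and 27.7%. Scaled to total reads, 5 rose and 5 fell in round and 4 rose and 10 fell in elongating cells. Neighbours moved apart. At 4.9 to 5.1 Mb, Zfp628 fell by 1.01 in round cells and Zfp524, in the same cluster, rose by 0.87. Much of the exon sequence of Zfp524 overlaps other genes, so its value is uncertain. At 27.7 to 28.4 Mb, Zfp626 fell by 1.03 in elongating cells while Zfp36, a CCCH gene that is in the cluster by its name and place only, rose by 0.94. At 127.2 to 127.9 Mb, Zfp768 and Zfp689 rose by 1.11 and 0.75 in elongating cells, and Zfp646 and Zfp629 fell by 1.10 and 0.37. Of these 8 values, 7 kept their direction and call under total-count scaling, and Zfp689 was then at 0.19 without passing the test.

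Chromosome 13 held 32 Zfp genes with 12 members, and 7 of these lay in a cluster of 20 Zfp genes at 67.0 to 67.8 Mb. All 7 fell in elongating against round WT cells, with log2 fold changes from -0.65 to -1.68, a direction shared by 40.2% of all genes tested. Zfp712, Zfp87, Zfp748 and Zfp65 reached the mean of 100 through the round libraries alone, so their stage difference was built in. Zfp759, Zfp458 and Zfp58 reached it at both stages. The response of the 7 to the KO label was mixed. Under total-count scaling all 7 fell in elongating cells, as did 6215 of the 8605 genes with a mean of at least 100. In round cells Zfp458 and Zfp759 fell by 0.71 and 0.58, and Zfp748 rose by 0.53 (adjusted p = 0.028), a call lost without any 1 of the 4 round libraries (adjusted p from 0.098 to 0.15). In elongating cells Zfp712 and Zfp759 fell by 0.51 and 0.29. The Zfp712 call (adjusted p = 0.024) was lost without the first elongating WT library (0.26). The Zfp759 call (adjusted p = 0.0069) was lost without the second elongating WT library (0.061) or the second elongating KO-labelled library (0.051). Zfp87 did not pass the test at either stage, with values of -0.09 and -0.20. Chromosome 12 had 4 Zfp genes in the table, no cluster and no member, and its highest, Zfp277, had a mean of 95.6.

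**Figure D5:**
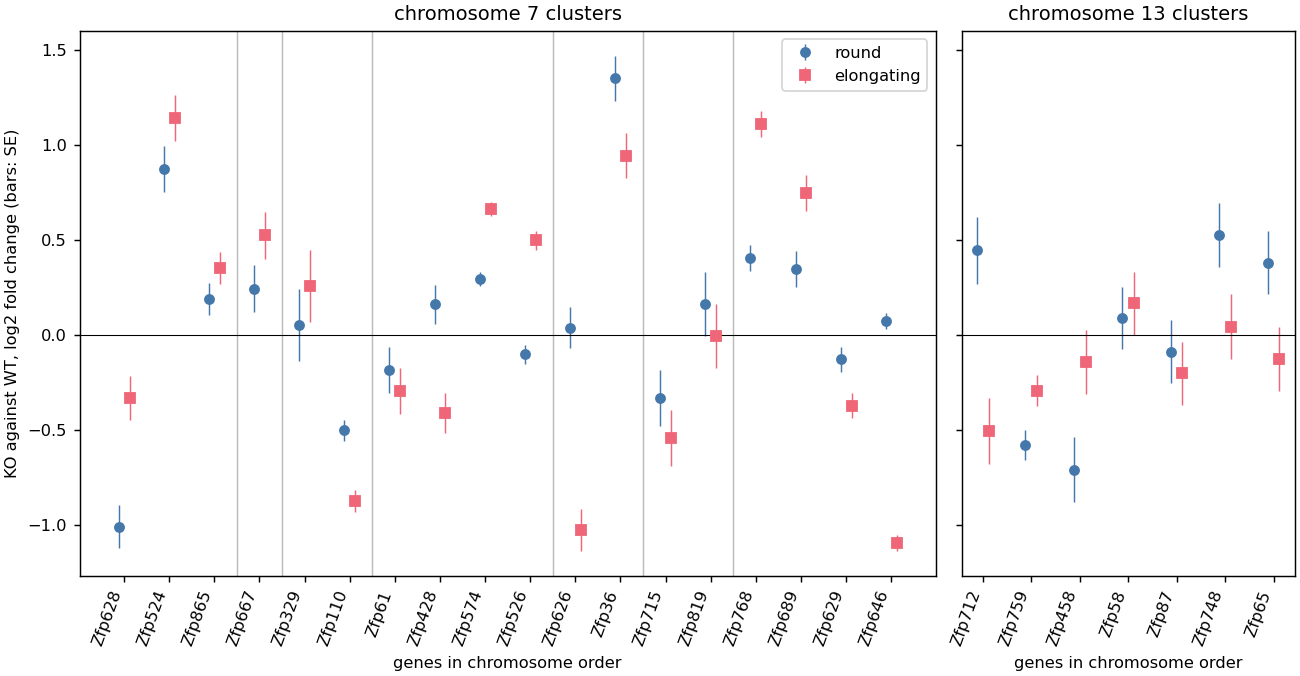
Log2 fold change with the KO label (bars are the SE of the model) in round (circles) and elongating spermatids (squares) for members in clusters on chromosomes 7 (18 genes) and 13 (7 genes), in chromosome order with grey lines between clusters. Some neighbouring genes lie on both sides of 0, such as Zfp628 at -1.01 and Zfp524 at 0.87 in round cells.

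Within 10 Mb of Carm1 on chromosome 9 lay Zfp558, Zfp317, Zfp426 and Zfp653. Zfp317 went from 584 and 610.0 in elongating WT to 1233 and 1161 in elongating KO-labelled libraries, which gives a log2 fold change of 1.00 ± 0.06 (limma SE, adjusted p = 4.4e-09), and was at 0.14 in round cells without passing the test. Zfp558 was at -0.14 and 0.00, and Zfp653 at -0.15 and -0.17, in round and elongating cells, and neither passed the test.

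The partners through which KRAB proteins act were described by a list of 32 genes of the table, which includes the member Zfp57. In WT elongating against round cells 26 of the 32 fell and 4 rose, with a median log2 fold change of -1.09 against 0.01 over all genes. All 32 fell under total-count scaling, where 6549 of the 8605 genes with a mean of at least 100 fell. Trim28, the corepressor itself, went from a mean of 3716 ± 63.3 to 2368 ± 85.4 (SD, n = 2), a change of -0.65, and Setdb1, the histone methyltransferase it recruits, from 743 and 741 to 193 and 200.4, a change of -1.91. The deacetylase gene Hdac1 fell by 2.28 and Pphln1, of the HUSH silencing complex, fell by 2.31. Ehmt2, which encodes the methyltransferase G9a, rose by 1.35.

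With the KO label 8 of the 32 rose and 4 fell in round cells, where 19.4% of all genes rose and 12.6% fell. The excess of higher genes depended on the scaling, since 5 were called higher and 6 lower once round libraries were set to their total reads. The same 5 and 6 were called with the 50 most abundant genes left out of the library size. As deposited, 6 rose and 12 fell in elongating cells, where 27.3% of all genes rose and 27.7% fell. In elongating cells total-count scaling gave 1 rise and 29 falls, and library sizes without the 50 most abundant genes gave 1 and 28. Of the 8605 genes with a mean of at least 100, 1024 rose and 6215 fell under total-count scaling. Suv39h2, a testis-expressed histone methyltransferase, was at 704 and 647 in WT against 421 and 398 in KO-labelled round libraries, and it fell by 0.72 in round and by 0.92 in elongating cells. Dnmt3l, a cofactor of DNA methylation, fell by 1.05 in elongating cells, and Chd3, of the NuRD complex, rose by 0.76. Trim28 rose by 0.28 in round cells and was at 0.07 in elongating cells, and Setdb1 was at -0.03 and -0.04, without passing the test.

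Some values are uncertain because the library kit does not mark strand and genes share exons or sequence. In 19 members over 10% of the exon bases overlap another gene of GENCODE M21. Among those described above, the share was 51.6% in Zfp524 (with Fiz1 and Gm44973), 27.1% in Zfp597, 26.1% in Zfp106, 16.6% in Zfp704, 12.9% in Zfp296 (with Gemin7), 12.7% in Zfp219, 11.4% in Zfp39, 10.4% in Zfp87 and 10.2% in Zfp748. In 7 members over 10% of the 50-base stretches also occur in transcripts of other genes, up to 46.6% in Zfp58, 45.0% in Zfp524 and 31.4% in Zfp955b.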

How the data were processed

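Poly A RNA of 8 libraries was made with a TruSeq kit after Trizol extraction, per the labels' protocols. Per the submitters' processing notes, DESeq 1.16.0, HTSeq 0.6.0, TopHat2 2.0.10 and CASAVA 1.8.2 were used, and builds mm10 and GRCm38, without their roles. The table the authors deposited holds a normalised signal per gene and library, and dividing out each library's step returned whole read counts (100% of values whole at a tolerance of 1e-06).

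Differences were tested in R 4.3.3 by limma 3.58.1 on log2(value + 1), with variances moderated along a trend, so the changes of low genes are understated. The filter kept 15685 genes (10 or more in 2 or more libraries). A single model held the 8 libraries (4 means, 4 residual degrees of freedom), and calls used a two-sided Benjamini-Hochberg adjusted p under 0.05 over all tested genes. Alternatives were edgeR 4.0.16 and DESeq2 1.42.0 on the recovered reads, 3 other scalings, pseudocounts 0.5 and 10, no filter, other sets of libraries and a replicate block. The scalings of sub-lists and single members, and the marker sum without Syce1, were added after seeing the data. The test was run on simulated counts of the round contrast with a fixed spread. It recovered 14 of 50 genes changed 1.5-fold, 34 of 50 changed 2-fold and 46 of 50 changed 4-fold. It also recovered 35 of 49 genes changed 0.5-fold and called 5 of 15456 unchanged genes. Modest changes can therefore go uncalled. The simulation changed 200 genes of any level, fewer than were called in the data, so its rates are not those of the members.

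Symbols were placed on GENCODE M21 (GRCm38), and all 120 members had a position. Finger and KRAB classes come from GENCODE M21 coding sequences translated here (pattern C-x2,4-C-x12-H-x2,6-H in the longest protein, KRAB in any isoform with at most 2 of 8 anchor residues missing), because RefSeq proteins, named in the plan, were not used here. That substitution was chosen after the files were seen. Named genes were the 10 largest rises and falls with non-overlapping groups in each KO contrast, the 8 highest members, the 5 largest stage changes each way, the 6 largest differences of KO effects, members near Carm1 and the 3 largest cluster changes on chromosomes 7, 12 and 13. Other members are named for their class, for opposite calls or as neighbours, after their values were seen. The members and lists were chosen with earlier results of these data known. The libraries of a group differed by more than sampling noise (chi-square per gene 1.39 to 2.39) and were counted separately.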

Additional observations from a re-analysis of the deposited data

Results flagged for a closer look

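In 34 named members the effect of the KO label differed between elongating and round spermatids by the test of the difference itself, with a limma adjusted p under 0.05. Values are the elongating minus the round effect on the log2 scale. The difference was above 0 in 20 members: Zfp131 (1.18), Zfp618 (1.15), Zfp296 (1.10), Zfp516 (1.03), Zfp704 (0.92), Zfp706 (0.87), Zfp317 (0.87), Zfp106 (0.79), Zfp217 (0.76), Zfp768 (0.71), Zfp385b (0.68), Zfp628 (0.68), Zfp474 (0.62), Zfp654 (0.56), Zfp185 (0.54), Zfp143 (0.49), Zfp672 (0.39), Zfp451 (0.39), Zfp574 (0.37) and Zfp385a (0.33). It was below 0 in 14 members: Zfp646 (-1.17), Zfp626 (-1.06), Zfp105 (-1.01), Zfp712 (-0.95), Zfp438 (-0.90), Zfp639 (-0.88), Zfp239 (-0.71), Zfp219 (-0.69), Zfp462 (-0.68), Zfp518a (-0.61), Zfp426 (-0.49), Zfp110 (-0.37), Zfp541 (-0.25) and Zfp39 (-0.21). Of all genes tested, 19.3% were called above 0 and 17.5% below 0, so such differences were common in the table. Scaling to total reads moved the median of all genes in this contrast from -0.04 to -0.49, so the sign is relative to the deposited scaling. The call held in every setting run in 21 of the 34 and was lost in at least 1 in 13. In 8 of these, Zfp185, Zfp385a, Zfp451, Zfp574, Zfp628, Zfp654, Zfp672 and Zfp768, it was lost under another scaling alone. With 1 library left out it was lost in Zfp518a and Zfp239 (6 of 8 libraries each), Zfp385b (5), Zfp39 (4) and Zfp143 (2). By DESeq2 it was also lost in Zfp518a (adjusted p = 0.20), Zfp239 (0.11), Zfp39 (0.087) and Zfp143 (0.067), and by edgeR in Zfp518a (0.093). With 2 libraries per group, no group was large enough to look for a single library that stands apart.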

How the results depend on the processing

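Over 110 tested values of named members, 1830 recomputed values kept direction and side of the threshold, 77 lost the call, 10 gained one and 29 changed sign. Total-count scaling gave 17 higher and 32 lower members with the KO label in round cells, 17 and 87 in elongating cells, and 10 and 67 for the difference, and 7 and 10 members rose between stages in WT and KO-labelled cells. Library sizes without the 50 most abundant genes gave 20 higher and 77 lower in elongating cells, 17 and 61 for the difference, and 14 and 15 stage rises. Under these 2 scalings, in that order, the elongating effect was -0.19 and -0.12 in Zfp385a, -0.11 and -0.048 in Zfp451 and -0.21 and -0.15 in Zfp474. The round effect was -0.041 and -0.038 in Zfp385a, -0.0222 and -0.0193 in Zfp451, -0.017 and -0.014 in Zfp646, and -0.0690 and -0.0661 in Zfp654. The difference was -0.14 and -0.084 in Zfp385a, -0.089 and -0.029 in Zfp451, -0.10 and -0.043 in Zfp574, and -0.088 and -0.027 in Zfp672. The cause was not tested. The other sign changes were in values that did not pass the test: Zfp558 in elongating cells was at 0.0040 by DESeq2, and with 1 library left out its values ranged from -0.12 to 0.12, those of Zfp87 in elongating cells from -0.48 to 0.079, and in round cells those of Zfp541 from -0.044 to 0.022 and of Zfp385a from -0.013 to 0.11. Leaving out each library in turn gave 15 to 28 higher and 15 to 24 lower members in round cells, 40 to 46 and 39 to 49 in elongating cells, 29 to 38 and 23 to 36 for the difference, 33 to 34 rises and 73 to 78 falls by stage in WT, and 36 to 37 and 69 to 73 in KO-labelled cells. Where this left 1 library in a group, it was assumed to vary like the others. The replicate block gave 24 and 21, 42 and 46, and 32 and 35 higher and lower members in the 3 KO contrasts, and 34 and 78 and 36 and 72 by stage. Same-numbered libraries correlated by -0.015 to 0.031 in their deviations, so the number was not taken as pairing. By edgeR 36 members rose and 27 fell in round cells, and by DESeq2 23 and 20. The DESeq2 count of falls in elongating cells was 33. A mean of at least 50 or 200 would give 168 or 77 members. The cluster counts with gaps of 0.5 and 2 Mb stayed within 1.5 times of those given.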
